A study of Mus musculus with 12 samples.

Results

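Mutant and control kidney cells were compared by RNA sequencing within the population that the sample titles call high expression. Its 4 libraries, 2 control high and 2 mutant high, were taken by title from 12 libraries in all, the others being 4 control low and 4 mutant low. Every library held RNA from newborn mouse kidney (postnatal day 0), from Six2-expressing cells with the R26R-tdTomato reporter, which glows red once a recombinase has removed its stop sequence, sorted by flow cytometry. The labels call all of them fetal kidney cells and give the groups no allele, driver, agent or strain beyond the words control and mutant. The series title points to the Polycomb gene Eed, but the labels of the samples do not mention it. Neither the signal that was sorted as high or low nor the animals behind each library are given. The spread behind the p-values is therefore that between these libraries and may be technical. Tubule genes that were lower and genes of other tissues that were higher in the mutant high cells are described in turn.

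The proximal tubule is the first part of the kidney tubule. It reclaims glucose, phosphate, amino acids and filtered proteins through carriers and receptors on its brush border, secretes drugs and organic acids, and burns fatty acids in its many mitochondria. Six2 is a transcription factor that keeps nephron progenitors, the source of these tubule cells, from differentiating. Eed is a core subunit of Polycomb repressive complex 2 (PRC2), which places the repressive mark H3K27me3 and keeps the regulators of other tissues silent. Many of these regulators lie behind promoters rich in CG pairs, a C followed by a G on one strand.

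The control high libraries held 6249263 and 4549011 fragments and the mutant high libraries 9307989 and 7779040, within a range of 4549011 to 12365078 over all 12. Loci of the mitochondrial chromosome took 4.51% and 10.3% of the fragments in control high cells, 1.17% and 0.795% in mutant high cells and 0.494% to 1.96% in the low libraries. Fragments of chromosome Y exceeded a set minimum count in 1 of the 2 mutant high libraries and in 0 of the 2 control high libraries. A count at or below that minimum was not told apart from none. The control high cells carried tubule markers at a high level and progenitor markers at a low one. Levels are given in CPM, fragments scaled to library size after the TMM correction of edgeR. On this scale the tested loci summed to 1299000 and 1288000 CPM in control high and 898200 and 956400 CPM in mutant high libraries. A level in CPM is thus not a share of the fragments, and gaps in CPM between the groups depend on this scaling. The phosphate carrier Slc34a1 stood at 4028 and 3357 CPM, against 59.1 ± 38.9 CPM (SD, n = 4) in control low cells. Six2 itself stood at 63.4 and 16.7 CPM, against 1703 ± 282 CPM (SD, n = 4) in control low cells, so Six2 RNA was lower in the population titled high. Eed, which would check the label, read 8.74 and 9.07 CPM in the control libraries and 4.73 and 7.26 CPM in the mutant libraries, and the log2 fold change was -0.57 (SE 0.39, adjusted p = 0.291 by edgeR). Both mutant libraries lay below both control libraries, but Eed did not pass the test, and whether its fragments lie inside or outside a deleted stretch cannot be told from sums over the locus.

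Of 13749 loci tested across the genome, 3780 (27.5%) passed an edgeR adjusted p of 0.05, 2239 of them higher (16.3%) and 1541 lower (11.2%) in mutant high cells. The median log2 fold change over all loci was 0.08. Ranges of the 2 groups did not overlap at 35.9% of the loci in the higher and 31.2% in the lower direction. With 2 libraries a group, such a gap alone therefore says little. Many genes named below were chosen for a call, such a gap or their mutant high level, so their gaps are partly built in. The counts leaned on single libraries. With control high 1 left out they were 1480 higher and 970 lower, without control high 2 they were 1162 and 834, and without mutant high 2 they were 1563 and 601. In the low cells, the same fit called 663 loci higher (4.82%) and 441 lower (3.21%). Genes are placed by the mm9 coordinates of their loci, counted from 1.

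**Figure D1:**
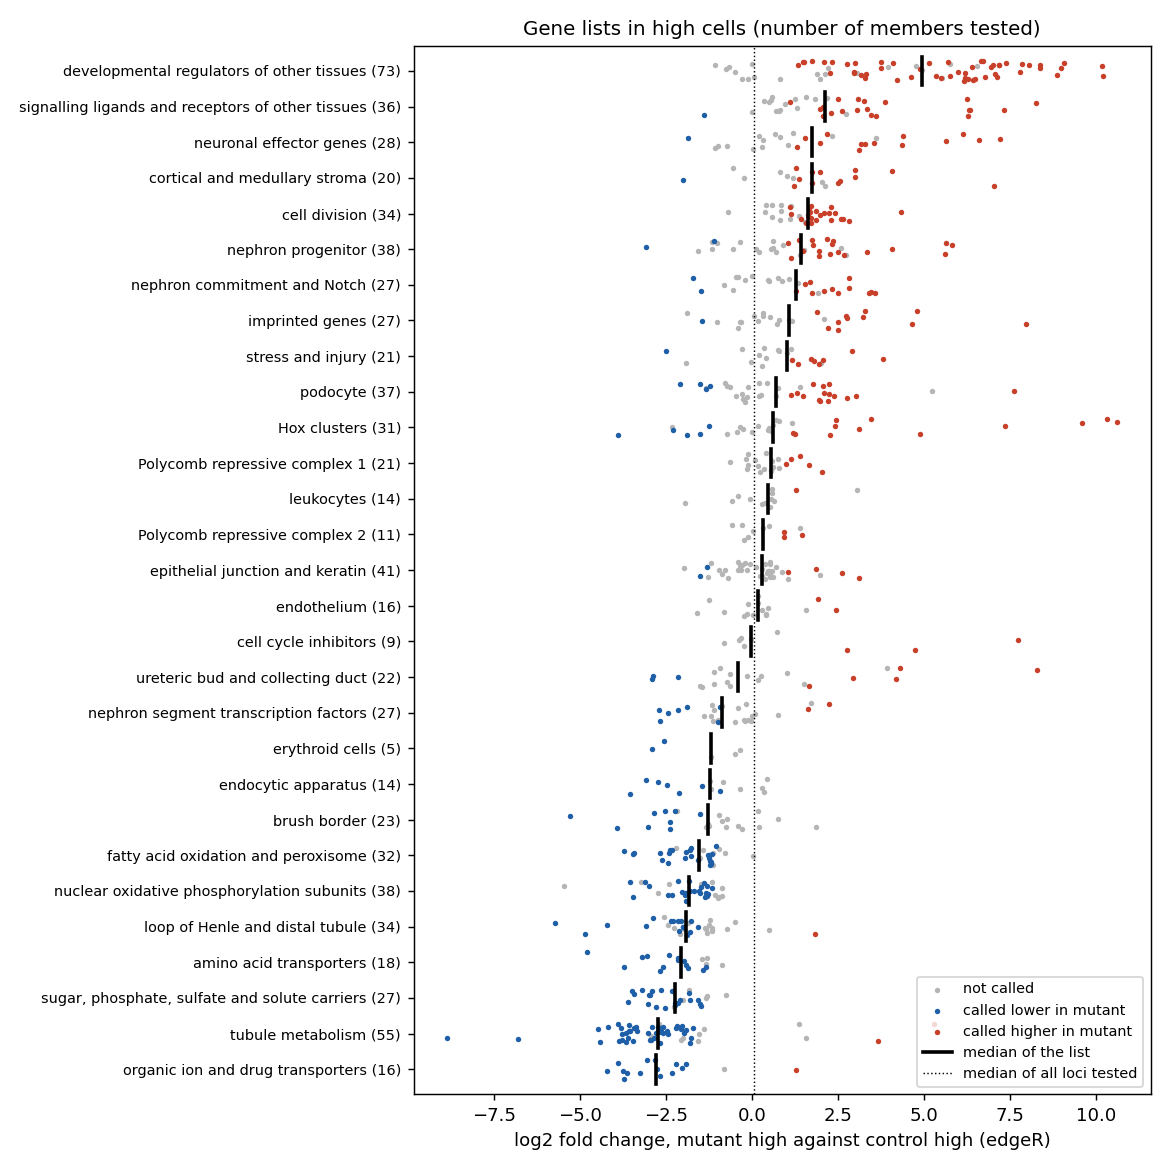
Each point is 1 tested gene of a list, placed by its log2 fold change in mutant high against control high cells (x axis). Colours give the edgeR call at an adjusted p of 0.05, thick bars the list medians and the dotted line the median of all loci (0.08). Tubule function lists lie left of that line, with medians down to -2.78, and developmental regulators of other tissues lie right of it, with a median of 4.94.

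Genes for the working functions of the proximal tubule fell together. Over the 6 lists for transport, endocytosis, brush border and metabolism, 153 of 168 loci could be tested. Of these, 109 fell, 3 rose and 41 did not pass, with a median log2 fold change of -2.33, where 11.2% of all loci fell. The median member stood at 19.6% of its control high level. Summed over the members, the level was 87710 and 72220 CPM in control high cells and 19450 and 18700 CPM in mutant high cells, and the control low libraries held 1843 to 3737 CPM and the mutant low ones 1513 to 2362 CPM. Mutant high cells therefore lay between control high and low cells. Without mutant high 2, 67 members fell. In bulk RNA, fewer tubule cells in a sample and less RNA per cell cannot be told apart.

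Secretion of organic ions and drugs was among the functions with the largest falls. Of 16 organic ion and drug transporters tested, 14 fell and 1 rose, with a median log2 fold change of -2.78. Slc22a6, the organic anion exchanger that draws drugs from blood (chromosome 19, 8692486 to 8702789, plus strand), stood at 2374 and 1390 CPM in the control libraries and 218 and 240 CPM in the mutant libraries. Slc22a8, a second organic anion carrier, went from 301 and 273 to 51.1 and 40.2 CPM. Slc22a13, an anion and urate carrier, went from 377 and 248 to 14.8 and 27.4 CPM. At each of these carriers both mutant libraries lay far below both control libraries. The log2 fold changes were -3.04 (SE 0.78, adjusted p = 0.0141 by edgeR) for Slc22a6, -2.65 (SE 0.56, adjusted p = 0.00386 by edgeR) for Slc22a8, and -3.89 (SE 0.50, adjusted p = 0.000177 by edgeR) for Slc22a13. The efflux pump Abcg2 also fell, from 1476 and 1332 to 285 and 464 CPM (log2 fold change -1.91, SE 0.31, adjusted p = 0.000701 by edgeR). One member went the other way: the efflux pump Abcc4 rose from 9.98 and 9.64 to 27.7 and 19.7 CPM (log2 fold change 1.27, SE 0.36, adjusted p = 0.018 by edgeR). Slc22a6 lost its call without control high 1, mutant high 1 or mutant high 2 (edgeR adjusted p = 0.0677, 0.0869 and 0.0929). Abcc4 lost its call without control high 1, control high 2 or mutant high 1 (edgeR adjusted p = 0.0667, 0.098 and 0.0977). Without mutant high 2, 8 of the 14 falls remained by count.

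Carriers that reclaim amino acids, sugars and phosphate fell as well. Of 18 amino acid transporters, 14 fell and none (0) rose, with a median of -2.06. Slc3a1, the heavy chain of the cystine carrier (chromosome 17, 85427687 to 85463581, plus strand), stood at 3802 and 1655 CPM in the control libraries and 531 and 376 CPM in the mutant libraries. The glutamate carrier Slc1a1 stood at 174 and 148 and 26.5 and 23.8 CPM, and the GABA carrier Slc6a13 at 779 and 411 and 171 and 145 CPM. No control library reached down to a mutant library in any of them. Their log2 fold changes were -2.59 (SE 0.48, adjusted p = 0.00141 by edgeR), -2.68 (SE 0.46, adjusted p = 0.000894 by edgeR) and -1.91 (SE 0.33, adjusted p = 0.0009 by edgeR). The basolateral exchanger Slc7a8 read 475 and 464 against 283 and 233 CPM and did not pass (edgeR adjusted p = 0.142). Of 27 carriers for sugar, phosphate, sulfate and other solutes, 21 fell and none rose, with a median of -2.23. Slc34a1, the main phosphate carrier of the proximal tubule (chromosome 13, 55501009 to 55516056, plus strand), fell from 4028 and 3357 to 481 and 432 CPM, with a log2 fold change of -3.02 (SE 1.0, adjusted p = 0.0469 by edgeR). Its groups were far apart, yet the call was lost in each fit that left out a library (edgeR adjusted p from 0.103 to 0.205). Firmer calls were those of the lactate carrier Slc5a12, from 318 and 216 to 42.5 and 26.1 CPM (log2 fold change -2.96, SE 0.37, adjusted p = 0.00016 by edgeR), and of the bicarbonate carrier Slc4a4, from 370 and 260 to 84.1 and 50.2 CPM (log2 fold change -2.23, SE 0.34, adjusted p = 0.000467 by edgeR). The glucose carrier Slc5a1 read 760 and 438 against 210 and 271 CPM without passing (edgeR adjusted p = 0.168). Leaving out control high 1 gave Slc3a1 a log2 fold change of -1.83. Without mutant high 2, 8 amino acid transporters and 13 of the other carriers fell.

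**Figure D2:**
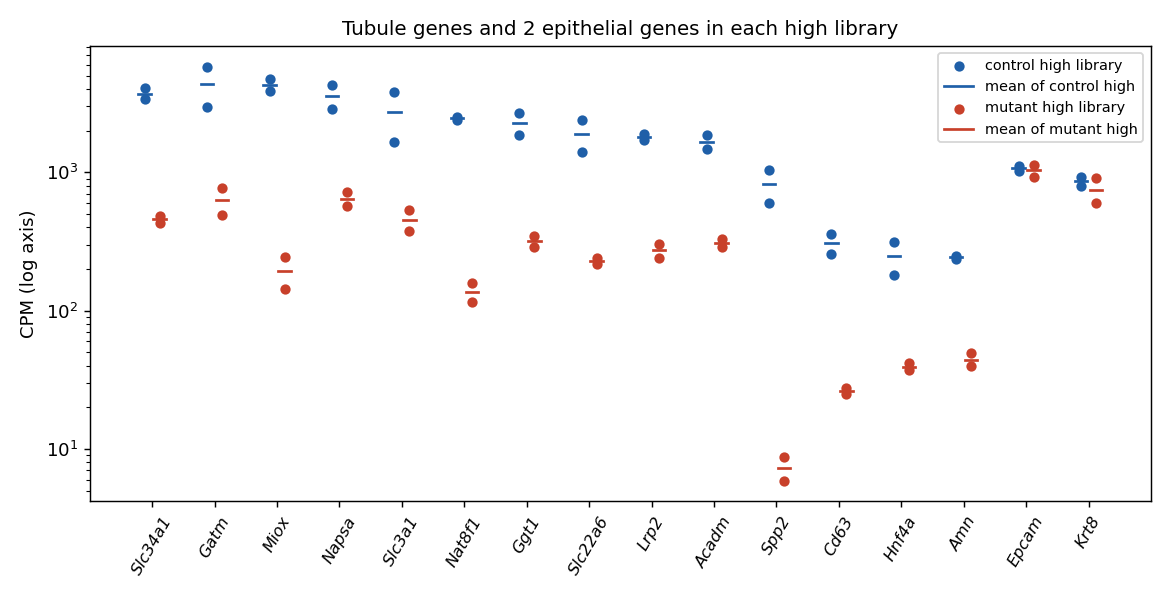
Level of 14 tubule genes and of the epithelial genes Epcam and Krt8 in each of the 4 high libraries (CPM, log axis), with the mean of each group as a line. Both mutant libraries lie below both control libraries at each of the 14 tubule genes, while the groups overlap at Epcam and Krt8.

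The apparatus that takes up filtered protein was lower in part. Of 14 endocytic genes, 7 fell and none rose, with a median of -1.20. Lrp2, which encodes the giant receptor megalin (chromosome 2, 69262392 to 69424124, minus strand), fell from 1896 and 1701 to 241 and 305 CPM (log2 fold change -2.72, SE 0.56, adjusted p = 0.00335 by edgeR). Amn, the membrane anchor of the partner receptor cubilin, fell from 249 and 236 to 49 and 39.5 CPM (log2 fold change -2.45, SE 0.43, adjusted p = 0.000979 by edgeR), and the vesicle protein gene Cd63 from 255 and 357 to 27.7 and 25.1 CPM (log2 fold change -3.53, SE 0.42, adjusted p = 0.000129 by edgeR). At all 3 genes the mutant libraries lay far below both controls. Dab2, the adaptor that links megalin to clathrin, stood at 934 and 716 against 415 and 513 CPM and did not pass (edgeR adjusted p = 0.0673). In the brush border list, 9 of 23 members fell and none rose, with a median of -1.26. Ggt1, the enzyme that splits glutathione at the tubule surface, went from 2677 and 1849 to 347 and 288 CPM (log2 fold change -2.83, SE 0.64, adjusted p = 0.00583 by edgeR), and the peptidase Anpep from 1125 and 796 to 269 and 139 CPM (log2 fold change -2.24, SE 0.36, adjusted p = 0.000674 by edgeR). The peptidases Dpp4, at 3672 and 1813 against 1708 and 1612 CPM, and Mme, at 244 and 229 against 167 and 117 CPM, did not pass (edgeR adjusted p = 0.364 and 0.245). Ggt1 lost its call without mutant high 2 (edgeR adjusted p = 0.0595), and without that library 4 endocytic and 5 brush border genes fell. A fit of the 4 high libraries alone called 14 brush border genes lower.

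Among 55 genes of tubule metabolism, 44 fell and 2 rose, with a median of -2.73. Miox, the enzyme that starts the breakdown of myo-inositol (chromosome 15, 89164904 to 89167438, plus strand), stood at 4718 and 3886 CPM in the control libraries and 142 and 243 CPM in the mutant libraries (log2 fold change -4.48, SE 0.84, adjusted p = 0.00252 by edgeR). Nat8f1, of the N-acetyltransferase 8 family, stood at 2518 and 2388 against 158 and 115 CPM (log2 fold change -4.16, SE 0.41, adjusted p = 3.53e-05 by edgeR). Near-identical copies of that family could share its fragments. Gatm, which makes the precursor of creatine, went from 5796 and 2944 to 494 and 768 CPM (log2 fold change -2.79, SE 0.52, adjusted p = 0.00147 by edgeR), and the aspartic protease gene Napsa from 4246 and 2870 to 718 and 571 CPM (log2 fold change -2.46, SE 0.54, adjusted p = 0.00409 by edgeR). All of these had mutant libraries well below both controls. The 2 members that rose were Rbp4, which carries retinol in plasma, from 11.4 and 16.2 to 332 and 744 CPM (log2 fold change 5.29, SE 0.74, adjusted p = 0.000446 by edgeR), and Gc, which carries vitamin D, from 2.70 and 2.55 to 23.7 and 43.4 CPM (log2 fold change 3.66, SE 0.50, adjusted p = 0.000244 by edgeR). Both encode proteins made chiefly in liver. The log2 fold change of Gatm was -2.19 without control high 1, without mutant high 2 that of Rbp4 was 4.62, and without mutant high 2 the list had 29 falls.

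Genes that burn fuel fell too. Over all loci, 11.2% fell and 16.3% rose. Of 32 genes of fatty acid oxidation and the peroxisome, 24 fell and none rose, with a median of -1.53. Acadm, the dehydrogenase for medium-chain fatty acids, fell from 1852 and 1482 to 329 and 290 CPM (log2 fold change -2.43, SE 0.37, adjusted p = 0.000402 by edgeR). Of 38 nuclear genes for oxidative phosphorylation, 25 fell and none rose, with a median of -1.82. Among them, Atp5b, a subunit of the ATP synthase, fell from 3624 and 3256 to 1010 and 834 CPM (log2 fold change -1.90, SE 0.38, adjusted p = 0.00247 by edgeR), Sdhb of complex II from 3909 and 5259 to 1125 and 1317 CPM (log2 fold change -1.91, SE 0.38, adjusted p = 0.00241 by edgeR) and Uqcrfs1 of complex III from 6244 and 4584 to 1260 and 1711 CPM (log2 fold change -1.87, SE 0.38, adjusted p = 0.00248 by edgeR). None of these genes had overlapping groups. Of 8 tested loci of the mitochondrial chromosome, 7 fell, with a median of -3.34. Short loci were lower in general: the fifth of loci with the shortest span had a median log2 fold change of -0.21 and the fifth with the longest span one of 0.31. With the trend on span removed, 24 of the 38 oxidative phosphorylation genes still fell by count. Fatty acid oxidation had 14 falls without control high 1, 15 without control high 2, 15 without mutant high 1 and 11 without mutant high 2. Oxidative phosphorylation had 14 falls without control high 2 and 14 without mutant high 1.

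Falls were not limited to the proximal segment. Of 34 genes of the loop of Henle and distal tubule, 16 fell and 1 rose, with a median of -1.92. Over all loci, 11.2% fell and 16.3% rose. Calb1, the calcium-binding protein of the distal tubule, went from 2808 and 3762 to 234 and 665 CPM (log2 fold change -2.87, SE 0.58, adjusted p = 0.00299 by edgeR), and Pvalb, another one, from 16 and 20.1 to 0.290 and 0.369 CPM (log2 fold change -5.73, SE 0.59, adjusted p = 6.20e-05 by edgeR). Umod, the marker of the thick ascending limb, read 683 and 1038 CPM in control and 536 and 503 CPM in mutant high cells and did not pass (edgeR adjusted p = 0.659). The one rise was Ppp1r1b, an inhibitor of protein phosphatase, from 6.66 and 4.25 to 21.6 and 17.6 CPM (log2 fold change 1.83, SE 0.44, adjusted p = 0.00739 by edgeR). It lost its call without control high 2 (edgeR adjusted p = 0.0897), where 9 genes fell, and without mutant high 2, 10 fell. A fit of the 4 high libraries alone called 27 lower. Without mutant high 2 the log2 fold change of Calb1 was -3.79.

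More of the transcription factors that direct the segments fell than rose. Of 27 tested, 7 fell (25.9%) and 2 rose (7.41%), with a median of -0.88. Over all loci, 11.2% fell and 16.3% rose. Hnf4a, which turns on the proximal tubule programme (chromosome 2, 163332674 to 163398643, plus strand), stood at 314 and 180 CPM in the control libraries and 41.7 and 36.9 CPM in the mutant libraries (log2 fold change -2.65, SE 0.70, adjusted p = 0.0153 by edgeR). Klf15, a regulator of metabolism, stood at 538 and 408 against 133 and 124 CPM (log2 fold change -1.88, SE 0.33, adjusted p = 0.00115 by edgeR). Pax8, which acts early in nephron formation, went up from 96.1 and 134 to 281 and 435 CPM (log2 fold change 1.64, SE 0.46, adjusted p = 0.0168 by edgeR), as did Tfap2a, from 2.29 and 1.13 to 7.15 and 9.72 CPM (log2 fold change 2.25, SE 0.63, adjusted p = 0.0172 by edgeR). Groups were apart at all 4 genes. Hnf4a lost its call without control high 1, mutant high 1 or mutant high 2 (edgeR adjusted p = 0.0851, 0.078 and 0.111). Pax8 lost it without control high 1, control high 2 or mutant high 2 (edgeR adjusted p = 0.111, 0.0541 and 0.115), and Tfap2a without control high 2 or mutant high 2 (0.14 and 0.0905). Tfap2a had a log2 fold change of 2.91 without control high 1. Only 2 falls were left without control high 1 or mutant high 1 and 1 without mutant high 2. The fit of the 4 high libraries alone had 11.

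Most genes common to kidney epithelia did not pass the test, as was true of most loci. Of 41 genes for junctions and keratins, 4 rose (9.76%), 2 fell (4.88%) and 35 did not pass, with a median of 0.30. Over all 13749 loci, 16.3% rose, 11.2% fell and 9969 did not pass. Epcam, an adhesion molecule of epithelia, read 1026 and 1110 CPM in control and 1136 and 924 CPM in mutant high cells (log2 fold change -0.05, SE 0.32, adjusted p = 0.921 by edgeR). Krt8, a keratin of simple epithelia, read 920 and 796 against 901 and 597 CPM (log2 fold change -0.20, SE 0.42, adjusted p = 0.763 by edgeR), and the groups overlapped at both. Cdh16, a cadherin of the kidney tubule, read 5817 and 5165 against 4231 and 2595 CPM (edgeR adjusted p = 0.367). Krt19, Cldn4 and Grhl3 were among the 4 that rose, and the 2 that fell were Cldn8 and Llgl2. Cldn8 lost its call without control high 2, mutant high 1 or mutant high 2 (edgeR adjusted p = 0.597, 0.122 and 0.213), Llgl2 without control high 2 or mutant high 2 (0.276 and 0.269) and Cldn4 without control high 1 or mutant high 2 (0.143 and 0.0824).

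The 12 largest falls among loci with at least 5 CPM in control high cells were led by tubule genes. Spp2, a secreted phosphoprotein (chromosome 1, 90303594 to 90323013, plus strand), stood at 603 and 1033 CPM in the control libraries and 8.70 and 5.91 CPM in the mutant libraries (log2 fold change -6.80, SE 0.64, adjusted p = 3.53e-05 by edgeR). Kap, a kidney protein whose RNA is known to answer to androgen, stood at 4.99 and 8.79 CPM in control high cells and had no fragment in either mutant high library, which is at least 40.6-fold lower against a floor of 3 fragments over the group. The control libraries differed widely at some others. Dpep1, a brush border dipeptidase, read 25.2 and 138 against 2.51 and 1.60 CPM, and Pecr, a reductase of the peroxisome, 21.2 and 171 against 3.96 and 1.85 CPM. Their log2 fold changes were -5.28 and -5.02 with all libraries, -3.60 and -2.85 without control high 2, and -6.01 and -5.82 without control high 1. That of Pecr was -5.66 without mutant high 1. The rest were Slc22a13b-ps, Mrps5, Pvalb, Cmbl, Ciao2b, Nepn, Fam213b and Defb19. The fall of Mrps5 rested on control high 2: its log2 fold change was -6.18 with all libraries and -0.91 without that one (edgeR adjusted p = 0.841), and its call was also lost without mutant high 1 or mutant high 2 (0.172 and 0.178). Ciao2b lost its call in each fit that left out a library (edgeR adjusted p from 0.0743 to 0.188). Over the genome, 82 called loci fell to under 0.5 CPM in mutant high cells.

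Regulators of other tissues rose in the mutant high cells. From a list of 178 such genes, mostly transcription factors, 176 had a locus and 73 passed the filter on low counts. Of the 73, 53 rose, none (0) fell and 20 did not pass, where 16.3% of all loci rose. In the control high libraries, 131 and 136 of the 176 loci had no fragment. A gene silent in the control groups could pass the filter only by its fragments in mutant cells, and could then only rise. The share that rose and the lack of falls are thus partly set by the filter and are not to be read against 16.3%. The 73 are also not the whole list. Of the 53, 24 had no fragment in the control high libraries and 40 lay under 0.5 CPM there. Their levels in mutant high cells had a median of 5.10 CPM and a maximum of 41.5 CPM. The same genes were up in the low cells in 43 of 53 cases, and their mutant low levels had a median of 5.34 CPM. The count of rises was 34 without control high 2.

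Foregut, brain and limb genes stood among them. Nkx2-1, the master regulator of thyroid and lung (chromosome 12, 57632924 to 57637895, minus strand), had no fragment in the control high libraries and stood at 24.1 and 9.97 CPM in mutant high cells, at least 49.6-fold higher against the floor of 3 fragments. In low cells it went from 0.0632 ± 0.0734 CPM (SD, n = 4) to 50.2 ± 18 CPM (SD, n = 4). Foxa1, a pioneer factor of endoderm (chromosome 12, 58641619 to 58647108, minus strand), rose from no fragment to 25.7 and 8.98 CPM, at least 51-fold, with mutant high 1 the higher of the pair. En2, which patterns midbrain and hindbrain, had 0.416 and 0 CPM in the control libraries and 30.1 and 43.8 CPM in the mutant libraries (edgeR adjusted p = 1.20e-05). Its ratio of 150 has a 95% counting interval of 41.5 to 1245, which covers counting error only, as reads made by PCR without molecular identifiers are not independent molecules. Mab21l1, needed for eye development, had 0 and 0.567 against 24.6 and 32.1 CPM (edgeR adjusted p = 2.00e-05), a ratio of 116 with an interval of 32.1 to 964. Tbx3, a repressor in limb and mammary bud, rose from 2.50 and 2.55 to 31.4 and 18.1 CPM (log2 fold change 3.29, SE 0.62, adjusted p = 0.00173 by edgeR). The pancreas and spinal cord factor Nkx6-1 went from 1.04 and 0 to 20.4 and 14.7 CPM (edgeR adjusted p = 0.00059). Both mutant libraries lay above both controls at every one of these genes, a gap that their choice by call and level partly built in. Among other members that rose, picked after their values were seen, were Pax6 of eye and forebrain, Isl1 of motor neurons and heart, Sox2 of neural progenitors, Pitx1 of the hindlimb and Foxa2 of endoderm. They had 7.54 and 7.63, 1.55 and 2.09, 9.76 and 9.97, 5.31 and 1.48 and 2.51 and 1.23 CPM in the 2 mutant high libraries, and at most 0.283 CPM in a control high library. Foxa2 lost its call in each fit that left out a library (edgeR adjusted p from 0.0564 to 0.135), Pitx1 without control high 1, control high 2 or mutant high 1 (0.0696, 0.0657 and 0.0651) and Isl1 without control high 1 (0.0564).

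The Hox genes, which set position along the body, moved in both directions. Of 31 tested, 12 rose (38.7%) and 5 fell (16.1%), with a median of 0.61. Over all loci, 16.3% rose and 11.2% fell. Of the 35 Hox genes with a locus, 9 and 8 had no fragment in the control high libraries. For such genes too the filter favours members with fragments in mutant cells. The share that rose is thus not to be read against 16.3%. The terminal genes of 3 clusters had no fragment in control high cells. Hoxd13 (chromosome 2, 74506367 to 74509655, plus strand) stood at 21 and 25.5 CPM in mutant high cells, Hoxc13 (chromosome 15, 102751562 to 102759245, plus strand) at 22.8 and 15.4 CPM and Hoxa13 (chromosome 6, 52208852 to 52210874, minus strand) at 17.7 and 5.29 CPM. These are at least 63.8-fold, 54.3-fold and 34-fold higher against the floor, with edgeR adjusted p of 0.000108, 0.000211 and 0.00124. In the low cells they went from 0.178 ± 0.183 CPM (SD, n = 4), 0.169 ± 0.256 CPM (SD, n = 4) and 0 CPM to 55.4 ± 22.8 CPM (SD, n = 4), 27.9 ± 4.72 CPM (SD, n = 4) and 7.15 ± 2.72 CPM (SD, n = 4). In the same D cluster, Hoxd10 fell from 118 and 192 to 67.6 and 64.1 CPM (log2 fold change -1.23, SE 0.26, adjusted p = 0.00346 by edgeR), and the other falls were Hoxd8, Hoxd9, Hoxb3 and Hoxb6. Without control high 2, Hoxd10 had an edgeR adjusted p of 0.0553 and 6 Hox genes rose and 1 fell. Hoxb6 lost its call in each fit that left out a library (edgeR adjusted p from 0.0976 to 0.153), Hoxd8 and Hoxd9 without control high 2 (0.106 and 0.261) or mutant high 2 (0.0934 and 0.142), and Hoxb3 without control high 1 or mutant high 2 (0.0747 and 0.0737). With control high 1 left out 7 rose and 3 fell, and without mutant high 2, 1 fell.

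The promoters of 2 tubule genes that fell and 2 regulators that rose are shown for their content of CG pairs, since PRC2 is known for CG-rich promoters. Each line is the 250 bases before the start of the gene in RefSeq (GRCm38.p6), 5′ to 3′ on the gene's strand, with CG in capitals. The windows are chr19:8617746-8617995 on the plus strand for Slc22a6, chr13:55399398-55399647 on the plus strand for Slc34a1, chr2:74667975-74668224 on the plus strand for Hoxd13 and chr12:57546112-57546361 on the minus strand for Foxa1.
Slc22a6: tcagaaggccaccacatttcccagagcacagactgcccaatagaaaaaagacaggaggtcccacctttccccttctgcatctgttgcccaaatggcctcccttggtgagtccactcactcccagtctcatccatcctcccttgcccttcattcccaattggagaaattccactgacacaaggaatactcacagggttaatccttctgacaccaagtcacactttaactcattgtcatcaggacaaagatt
Slc34a1: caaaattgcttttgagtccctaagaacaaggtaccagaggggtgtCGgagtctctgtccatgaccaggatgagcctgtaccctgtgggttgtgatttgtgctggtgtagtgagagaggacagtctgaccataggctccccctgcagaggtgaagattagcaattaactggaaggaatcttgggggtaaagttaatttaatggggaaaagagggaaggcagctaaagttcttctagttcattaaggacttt
Hoxd13: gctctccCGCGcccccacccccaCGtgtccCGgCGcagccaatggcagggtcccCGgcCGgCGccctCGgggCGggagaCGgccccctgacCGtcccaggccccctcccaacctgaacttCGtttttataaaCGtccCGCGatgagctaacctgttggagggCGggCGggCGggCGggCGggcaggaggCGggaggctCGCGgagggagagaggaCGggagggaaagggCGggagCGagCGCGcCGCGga
Foxa1: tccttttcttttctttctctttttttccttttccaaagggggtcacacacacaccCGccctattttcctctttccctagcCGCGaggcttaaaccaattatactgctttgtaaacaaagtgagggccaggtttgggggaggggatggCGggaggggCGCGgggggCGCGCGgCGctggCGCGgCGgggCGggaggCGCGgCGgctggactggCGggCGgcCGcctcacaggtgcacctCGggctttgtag
The Slc22a6 and Slc34a1 windows hold 0 and 1 CG pairs, and the Hoxd13 and Foxa1 windows hold 31 and 21. CG reads the same on both strands. Over 27025 mouse promoters of this length the median was 6 pairs, with quartiles of 2 and 16, and 91.7% held at least 1. The 4 genes were picked after their values were seen. The groups of genes were not compared, because only 87 of 109 tubule genes that fell (79.8%) and 32 of 53 regulators that rose (60.4%) had an entry. The 4 windows therefore do not stand for their groups.

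Secreted signals and neuronal genes of other tissues rose along with the regulators. Of 61 ligands and receptors with a locus, 36 passed the filter, and of these 20 rose and 1 fell, with a median of 2.13. Over all loci 16.3% rose. For these genes too the filter favours members with fragments in mutant cells, so the shares are not to be read against 16.3%. Fgf18, a growth factor of bone and lung, stood at 0.624 and 1.13 against 12 and 13.5 CPM (log2 fold change 3.88, SE 0.53, adjusted p = 0.000232 by edgeR), and Ntrk2, the receptor for brain-derived neurotrophic factor, at 1.87 and 2.27 against 9.76 and 15.8 CPM (log2 fold change 2.62, SE 0.44, adjusted p = 0.000851 by edgeR). Ihh, the hedgehog ligand, was the fall, from 110 and 38 to 26.8 and 30.1 CPM (log2 fold change -1.39, SE 0.48, adjusted p = 0.0435 by edgeR). Of 51 neuronal effector genes with a locus, 28 passed the filter, and of these 14 rose and 1, Ddc, fell, with a median of 1.76. Dpysl5, which guides axons, rose from 2.50 and 1.70 to 29.9 and 19.8 CPM (log2 fold change 3.54, SE 0.39, adjusted p = 8.84e-05 by edgeR), and Lrrtm1, a synaptic adhesion protein, from 2.70 and 0.283 to 36.1 and 32.1 CPM (log2 fold change 4.40, SE 0.68, adjusted p = 0.000491 by edgeR). Mutant libraries were the high pair at all 4 genes that rose here. Ihh lost its call without control high 1, mutant high 1 or mutant high 2 (edgeR adjusted p = 0.646, 0.17 and 0.151), and Ddc in each fit that left out a library (0.0745 to 0.136). Without control high 1, 13 signals and 7 neuronal genes rose, and the log2 fold changes of Lrrtm1 and Ihh were 6.88 and -0.38. Without control high 2, 10 signals and 8 neuronal genes rose, and these values were 3.64 and -1.97. A fit of the 4 high libraries alone called 9 neuronal genes higher.

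Inhibitors of the cell cycle include the Cdkn2a and Cdkn2b pair, a textbook target of Polycomb repression. Of 9 tested, 3 rose (33.3%) and none fell, where 16.3% of all loci rose. Cdkn2b (chromosome 4, 88952198 to 88956941, minus strand) stood at 1.25 and 0.851 CPM in the control libraries and 34.1 and 23.9 CPM in the mutant libraries (log2 fold change 4.74, SE 0.68, adjusted p = 0.000316 by edgeR), and in low cells it went from 0.241 ± 0.176 CPM (SD, n = 4) to 5.06 ± 2.02 CPM (SD, n = 4). Cdkn2a had no fragment in the control high libraries and 4.15 and 2.09 CPM in the mutant high libraries, at least 9.02-fold higher (edgeR adjusted p = 0.0168). Cdkn1c, an imprinted inhibitor, rose from 91.7 and 51.3 to 389 and 594 CPM (log2 fold change 2.78, SE 0.42, adjusted p = 0.000396 by edgeR). Cdkn2a lost its call without control high 1, control high 2 or mutant high 1 (edgeR adjusted p = 0.0912, 0.0817 and 0.0639).

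**Figure D3:**
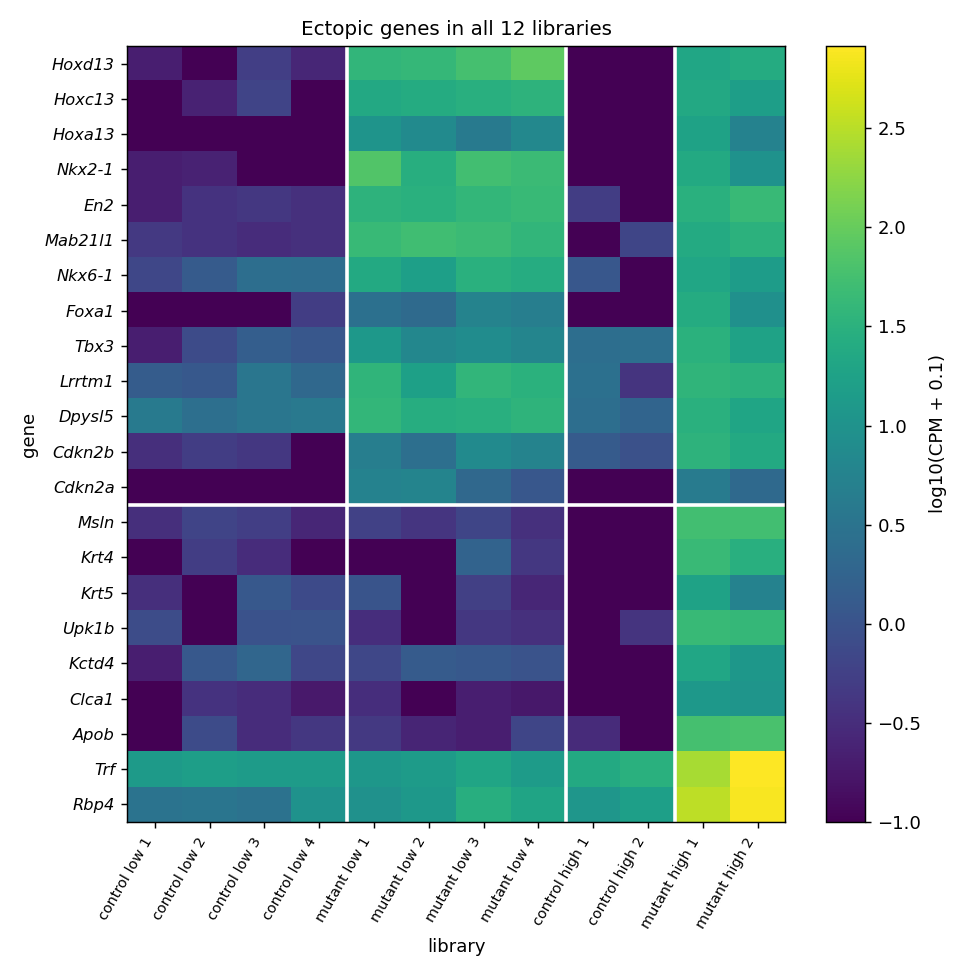
Level of 22 genes that rose in mutant high cells, in all 12 libraries, on the scale log10(CPM + 0.1). Genes above the horizontal line are regulators of other tissues, neuronal genes and cell cycle inhibitors, which are also up in the 4 mutant low libraries, and genes below it are bright chiefly in the 2 mutant high libraries.

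A second group of genes from other tissues was high in mutant high cells and near 0 in mutant low cells. Over the genome, 382 loci rose from a mean under 0.5 CPM in control high cells to one of 1 CPM or more in mutant high cells, 111 of them from no fragment at all. Of the 382, 126 also rose in low cells, while 91 stayed under 1 CPM in both low groups. In 20 of these 91 the level reached at least 5 CPM in mutant high cells. Msln, the surface protein mesothelin (chromosome 17, 25885558 to 25891323, minus strand), had no fragment in control high cells and stood at 54.2 and 54.5 CPM in mutant high cells, at least 151-fold higher (edgeR adjusted p = 1.20e-05). In low cells Msln read 0.344 ± 0.175 CPM (SD, n = 4) in the control and 0.391 ± 0.143 CPM (SD, n = 4) in the mutant, and the mutant effects in high and low cells differed (edgeR adjusted p of the difference = 0.00048). Genes of this group were set apart as high in mutant high and near 0 in low cells. Such a difference is thus partly built in, here and at the keratins that follow, and only describes them. Krt4, a keratin of layered epithelia, went from no fragment to 44.9 and 29.5 CPM, at least 106-fold, and the basal keratin Krt5 from no fragment to 17.9 and 5.42 CPM, at least 34.4-fold (edgeR adjusted p = 0.00277 and 0.004). The difference between high and low cells passed for Krt5 and not for Krt4 (edgeR adjusted p = 0.02 and 0.101). Kctd4, at 20.9 and 11.7 CPM, and Clca1, a secreted protein of goblet cells, at 12.1 and 10.9 CPM, also came from no fragment. Ecel1 was also among the 12 largest rises, with the regulators and Hox genes given above.

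Genes of such tissues were put in 3 groups after their values were seen, and so with no test of the lists. Not all members were near 0 in control high cells. Of 13 tested genes of urothelium and layered epithelia, 12 rose. Of the 16 loci of this group, 8 and 7 had no fragment in the control high libraries. The filter favours such members when they have fragments in mutant high cells. With the choice by value, the shares that rose in the 3 groups are thus not to be read against the 16.3% of all loci. Upk1b, a plaque protein of the bladder lining (chromosome 16, 38773297 to 38800316, minus strand), had 0 and 0.283 CPM in the control libraries and 43.8 and 40.6 CPM in the mutant libraries (edgeR adjusted p = 0.000134), and Krt5 and Krt4 belong to the same group. Summed over the group, the control high libraries held 6.45 and 15.6 CPM, the mutant high libraries 297 and 187 CPM and the 8 low libraries 5.30 to 16.9 CPM. Of 12 tested genes for plasma proteins of liver and yolk sac, 8 rose. Their summed level was 154 and 855 CPM in the control high and 1866 and 2850 CPM in the mutant high libraries, so the controls differed widely. Apob, the core protein of lipoproteins, had 0.208 and 0 against 56.8 and 62.6 CPM (edgeR adjusted p = 6.20e-05), and Trf, which carries iron, went from 24.1 and 30.6 to 252 and 822 CPM (log2 fold change 4.29, SE 0.47, adjusted p = 8.84e-05 by edgeR). Albumin (Alb) read 0.208 and 0.283 against 7.63 and 5.54 CPM (edgeR adjusted p = 0.00317), and alpha-fetoprotein (Afp), at 32.7 and 42 against 51.3 and 41.8 CPM, did not pass (edgeR adjusted p = 0.627). Of 5 tested mesothelial genes, Msln, Upk3b, Bnc1 and Lrrn4 rose and Gpm6a fell, and their summed level, which Gpm6a led, was 721 and 261 CPM in the control high and 147 and 148 CPM in the mutant high libraries. Upk3b lost its call without control high 2 or mutant high 1 (edgeR adjusted p = 0.0809 and 0.124), Bnc1 without control high 1 or control high 2 (0.0897 and 0.0751) and Lrrn4 without control high 1, control high 2 or mutant high 1 (0.135, 0.119 and 0.126). Whether such cells were present in the sort was not tested. The log2 fold change of Trf was 4.92 without mutant high 1 and 3.23 without mutant high 2.

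Progenitor genes were higher in mutant than in control high cells, yet far below the low cells. Of 38 tested, 19 rose (50%) and 2 fell (5.26%), with a median of 1.44, where 16.3% of all loci rose and 11.2% fell. Their sum was 1508 and 1179 CPM in the control high, 2307 and 2442 CPM in the mutant high and 5663 to 8800 CPM in the low libraries. Six2 (chromosome 17, 86083608 to 86087594, minus strand) read 63.4 and 16.7 CPM in the control libraries and 97.2 and 113 CPM in the mutant libraries (log2 fold change 1.38, SE 0.45, adjusted p = 0.0331 by edgeR). In low cells it was lower in the mutant, 793 ± 116 CPM (SD, n = 4) against 1703 ± 282 CPM (SD, n = 4) (log2 fold change -1.10, SE 0.31, adjusted p = 0.0397 by edgeR), and the 2 effects differed (edgeR adjusted p of the difference = 0.011). Capn6, a calpain-like protein of the progenitor list, rose from 56.2 and 39.7 to 168 and 272 CPM (log2 fold change 2.19, SE 0.33, adjusted p = 0.000381 by edgeR), as did Etv4, an effector of growth factor signals, from 42.2 and 17.9 to 139 and 163 CPM (log2 fold change 2.32, SE 0.40, adjusted p = 0.000877 by edgeR). The falls were Kcnj15, from 442 and 250 to 48 and 34.8 CPM (log2 fold change -3.06, SE 0.59, adjusted p = 0.00241 by edgeR), and Fgf9, which lost its call in each fit that left out a library (edgeR adjusted p from 0.0526 to 0.0765). The control libraries differed more than the mutant ones at Six2, and its call was lost without control high 2 (log2 fold change 0.71, edgeR adjusted p = 0.217), mutant high 1 (0.0737) or mutant high 2 (0.14). Log2 fold changes without control high 1 were 2.69 for Six2 and 3.12 for Etv4. A total of 10 progenitor genes rose without control high 2.

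Genes of early nephron formation and of cell division rose as well. Over all loci, 16.3% rose and 11.2% fell. Of 27 genes of commitment and Notch signalling, 12 rose (44.4%) and 2, Papss2 and Clec18a, fell (7.41%), with a median of 1.28. Clec18a lost its call without control high 1, mutant high 1 or mutant high 2 (edgeR adjusted p = 0.169, 0.133 and 0.0639). Sfrp2, a secreted regulator of Wnt signals, rose from 13.5 and 11.3 to 114 and 162 CPM (log2 fold change 3.47, SE 0.33, adjusted p = 3.32e-05 by edgeR), and the cadherin Cdh4 from 47 and 25.8 to 153 and 264 CPM (log2 fold change 2.51, SE 0.49, adjusted p = 0.0022 by edgeR). Of 34 genes of cell division, 22 rose (64.7%) and none fell, with a median of 1.64. Top2a, the topoisomerase of dividing cells, went from 70.1 and 38.6 to 205 and 380 CPM (log2 fold change 2.42, SE 0.37, adjusted p = 0.000462 by edgeR), and Prc1, a protein of the mitotic spindle, from 39.5 and 31.2 to 141 and 284 CPM (log2 fold change 2.58, SE 0.34, adjusted p = 0.000196 by edgeR). Mutant high 2 was the higher of the 2 mutant libraries at each of these 4 genes. In sum the division genes held 1609 and 1521 CPM in the controls, 3019 and 6044 CPM in the mutants and at least 6153 CPM in each control low library.

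Markers of other cells that a sorted kidney sample could hold moved to different degrees. Over all loci, 16.3% rose and 11.2% fell. For the ureteric bud and collecting duct these shares were 22.7% and 13.6%, for stroma 60% and 5% and for podocytes 40.5% and 10.8%. Among leukocyte markers 7.14% rose, and among the few erythroid genes tested 40% fell. Of 22 genes of the ureteric bud and collecting duct, 3 fell, among them the water channel Aqp3, from 568 and 749 to 205 and 94.9 CPM (log2 fold change -2.13, SE 0.38, adjusted p = 0.00109 by edgeR), and 5 rose, among them the growth factor receptor gene Ret, from 0.416 and 0.283 to 10.2 and 4.43 CPM (edgeR adjusted p = 0.000851, named after its value was seen). Their summed level, most of it from Calb1 in control high cells, went from 4803 and 6621 to 1895 and 1866 CPM, so it was lower together with the tubule lists, and the part of these cells in the tubule falls was not tested. The fit of the 4 high libraries alone called 7 higher and 7 lower. Without mutant high 1 the log2 fold change of Aqp3 was -2.78. Of 20 stromal genes tested, 12 rose and 1, Ntn1, fell, and their summed level was 335 and 377 CPM in control high against 982 and 1056 CPM in mutant high cells. Pdgfrb, a receptor of pericytes and fibroblasts, rose from 15.4 and 19.3 to 184 and 91.2 CPM (log2 fold change 2.99, SE 0.42, adjusted p = 0.000287 by edgeR). Of 37 podocyte genes, 15 rose and 4 fell, among them the master regulator Wt1, which rose from 5.41 and 3.12 to 22.6 and 11.1 CPM (log2 fold change 1.96, SE 0.46, adjusted p = 0.00652 by edgeR, named after its value was seen), while the summed level went from 9177 and 6999 to 6017 and 4534 CPM. Its slit diaphragm markers were near 0, with Nphs1 at 1.04 and 0.567 CPM in the control libraries and 2.42 and 0.985 CPM in the mutant libraries. Leukocyte markers summed to 434 and 533 against 830 and 1180 CPM, and Cd74, an immune chaperone, was the 1 of 14 that rose, from 286 and 350 to 702 and 858 CPM (log2 fold change 1.29, SE 0.39, adjusted p = 0.0255 by edgeR). The pan-leukocyte marker Ptprc read 3.95 and 2.84 CPM in control and 3.77 and 4.68 CPM in mutant high cells. Endothelial genes summed to 77.0 and 162 against 171 and 157 CPM, with Cldn5 and Flt1 the 2 of 16 that rose, where 16.3% of all loci did. Flt1 lost its call without control high 1 or mutant high 1 (edgeR adjusted p = 0.11 and 0.0514). Erythroid genes summed to 310 and 439 against 75.6 and 138 CPM, with Slc4a1, also known from acid-secreting cells of the collecting duct, and Epb42 the 2 of 5 that fell. The erythroid marker Alas2 read 0.208 and 0 CPM in the controls and 0.0966 and 0 CPM in the mutants. The part of such cells in the results above was not tested. The stromal rises numbered 5 without control high 1, 5 without control high 2 and 6 without mutant high 2. The podocyte rises numbered 4 without control high 2 and 4 without mutant high 1. Wt1 lost its call without control high 2 or mutant high 1 (edgeR adjusted p = 0.0858 and 0.0689, the latter with a log2 fold change of 1.35), and Cd74 without control high 1, control high 2 or mutant high 2 (0.134, 0.0882 and 0.121).

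**Figure D4:**
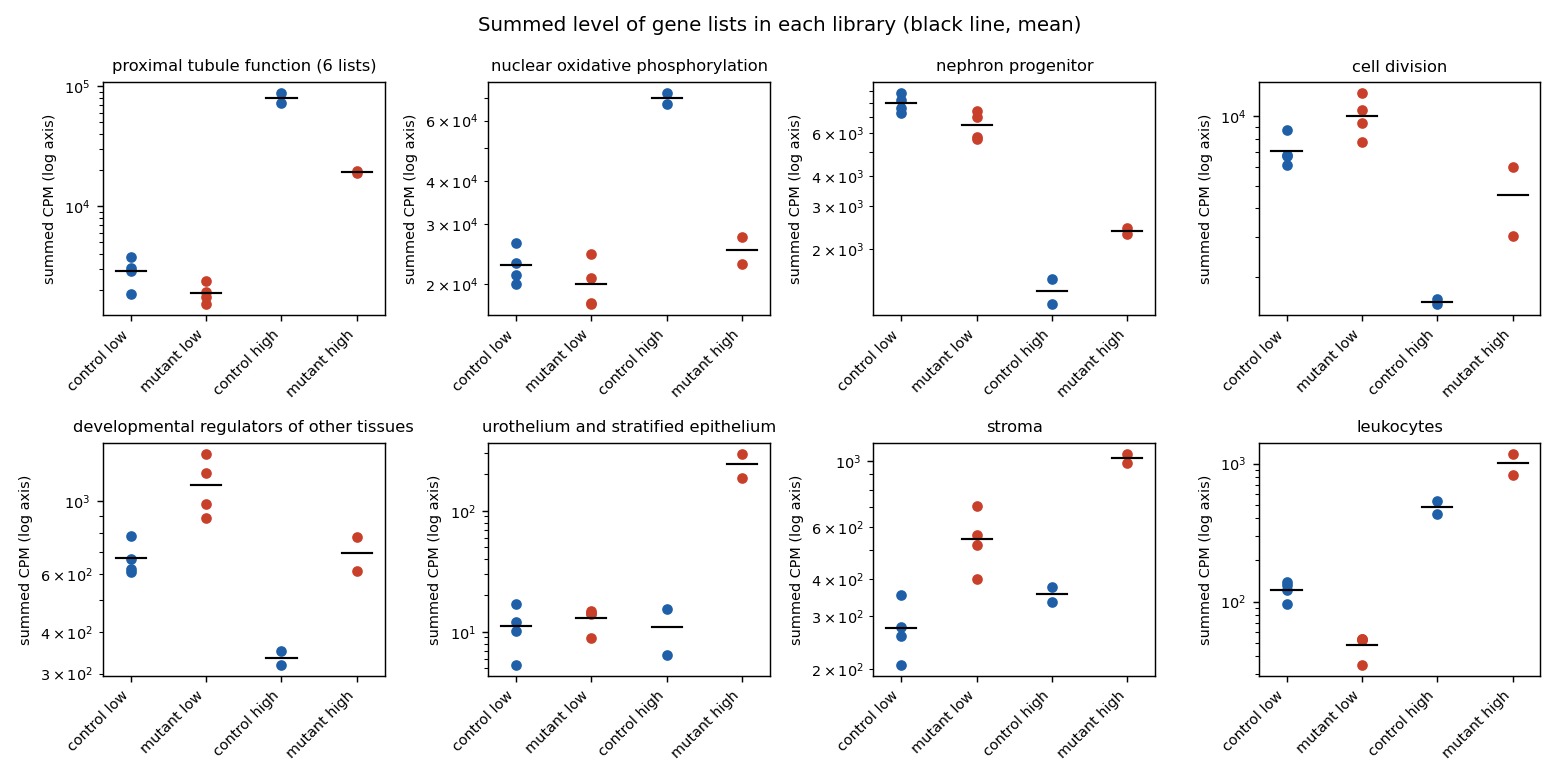
Summed level of 8 gene lists in each of the 12 libraries (CPM, log axis), 1 point a library and a line at the mean of each group. Proximal tubule function falls from 87710 and 72220 CPM in control high to 19450 and 18700 CPM in mutant high cells, while developmental regulators rise in both mutant groups.

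No gene of the Polycomb machinery was called lower. Of 11 genes of PRC2, 3 rose, and of 21 genes of Polycomb repressive complex 1, 5 rose, shares of 27.3% and 23.8% where 16.3% of all loci rose. Ezh2, the catalytic subunit of PRC2 (chromosome 6, 47480273 to 47545337, minus strand), read 49.5 and 26.6 CPM in the control libraries and 76.2 and 134 CPM in the mutant libraries (log2 fold change 1.46, SE 0.36, adjusted p = 0.00812 by edgeR), and its paralog Ezh1 read 37.4 and 20.1 against 60.6 and 50.7 CPM (log2 fold change 0.95, SE 0.30, adjusted p = 0.0314 by edgeR). Phf1 was the third and lost its call in each fit that left out a library (edgeR adjusted p from 0.05 to 0.272). Suz12, the core partner of Eed, read 13.5 and 11.9 against 14.5 and 11.7 CPM (log2 fold change 0.04, SE 0.36, adjusted p = 0.946 by edgeR). Jarid2, an accessory subunit, read 134 and 117 against 161 and 155 CPM (log2 fold change 0.34, SE 0.27, adjusted p = 0.378 by edgeR). Ezh2 is also known to follow the rate of cell division, and the division genes above were higher in the same libraries; their part in the Ezh2 value was not tested. Ezh2 lost its call without control high 2 or mutant high 2 (edgeR adjusted p = 0.107 and 0.117), and Ezh1 without control high 2, mutant high 1 or mutant high 2 (0.275, 0.138 and 0.063). Leaving out control high 2, 0 genes of PRC2 and 1 of complex 1 rose, without mutant high 1 it was 1 gene of PRC2, and without mutant high 2 it was 0 of PRC2 and 3 of complex 1.

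Imprinted and stress genes were also higher on balance. Over all loci, 16.3% rose and 11.2% fell. Of 27 imprinted genes tested, 11 rose (40.7%) and 1, Slc22a18, fell (3.70%), with a median of 1.09. Peg3, expressed from the paternal allele, rose from 17.7 and 27.2 to 186 and 112 CPM (log2 fold change 2.73, SE 0.46, adjusted p = 0.000849 by edgeR), and Dlk1, also paternal, from 15.6 and 9.92 to 76.2 and 69.3 CPM (log2 fold change 2.50, SE 0.46, adjusted p = 0.00142 by edgeR). Of 21 stress and injury genes, 8 rose (38.1%) and 1, Ier3, fell (4.76%), with a median of 1.03. Junb, an immediate early gene known to respond to dissociation of tissue, rose from 105 and 114 to 460 and 313 CPM (log2 fold change 1.82, SE 0.32, adjusted p = 0.000987 by edgeR), as did Ier2, from 526 and 380 to 1495 and 1493 CPM (log2 fold change 1.72, SE 0.34, adjusted p = 0.00237 by edgeR). Both mutant libraries exceeded both controls at all 4 genes. Ier3 lost its call without control high 2 or mutant high 2 (edgeR adjusted p = 0.166 and 0.13), and Slc22a18 in each fit that left out a library (0.0696 to 0.0941). The stress genes that rose numbered 5 without control high 1 and 4 without control high 2.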

How the data were processed

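RNA was measured in 12 libraries of sorted mouse kidney cells. Estimated counts of fragments were deposited for 55418 UCSC transcripts, without normalization. The file's title calls them raw fragments from CuffDiff2. Per the submitters' processing notes, Bowtie2, HTSeq, DESeq2 and the build mm9 were used, in roles that are not given. RNA was extracted with TRIzol and amplified with a low-input SMART-Seq kit, per the labels' protocols. The authors divided fragments between isoforms, so transcripts that overlap on a strand were summed to 26699 loci, of which 99.4% to 99.9% came out whole (tolerance 0.01). They were then rounded, and stand in for the counts per gene that the planned tests assumed. This kit does not mark strand by default, so fragments of overlapping antisense genes and of near-identical copies cannot be told apart. Deposited starts count from 0, as exact matches to the annotation below showed, and are printed plus 1.

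The table gives no gene names. Each deposited transcript was matched to GENCODE M21 (GRCm38) by an exact shift of its position that at least 3 neighbouring loci within 5000000 bases share. Of the tested loci, 3471 were matched at both ends of a transcript, 6960 at 1 end and 3058 by an overlap of at least 50%, and 260 stayed unnamed. No coordinate was converted for print. Of 1017 listed symbols, 982 were found. None of the 13 protein-coding genes of the mitochondrial chromosome was matched, so its 11 loci are given without names.

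Loci were tested in edgeR 4.0.16 (R 4.3.3) by quasi-likelihood, two-sided, with TMM scaling, filterByExpr, robust dispersions and no covariate. All 12 libraries entered 1 fit of 4 groups, because 2 libraries a group give little spread of their own, and p-values were adjusted by Benjamini-Hochberg over 13749 loci with a threshold of 0.05. It was tested on simulated data. Depth of 4549011 to 12365078 fragments a library sets the precision, and a locus with no fragment in a group was set at a floor of 3 fragments over the group. Alternatives were DESeq2 1.42.0, limma-voom (limma 3.58.1), other scalings and filters, a fold threshold, thinning, a replicate block and leaving out chromosomes or single libraries.

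Members, lists and rules were chosen with earlier results of these data known. Named genes were the 12 largest rises and falls (log2 fold change of at least 1, at least 5 CPM, no overlap), up to 8 of each list by level, members called against their list, and fixed Polycomb and cell cycle genes. Genes named outside this rule are said to be so or serve only to complete a count, and some that the rule takes are not reported here. Replicate numbers of the titles did not pair the high libraries (correlation of deviations across loci -0.055). In the descriptions of the libraries, each high library shares a number with a low one of its group. Across loci, the difference between the 2 high libraries correlated with that between the low libraries of the same numbers at -0.084 in control and 0.26 in mutant cells. Control and mutant share no such number, so it cannot be a block in their comparison, and what it marks is not stated.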

Additional observations from a re-analysis of the deposited data

Results flagged for a closer look

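The mutant effect in high cells differed from that in low cells at 9 of the 24 genes for which both were read, by the edgeR test of the difference at an adjusted p of 0.05, where 10.3% of all loci passed. Many of the 24 were named for a large rise in high cells or a level near 0 in low cells, so the 9 are a description and their share is not to be read against that of all loci. The difference, high minus low on the log2 scale, was 2.49 for Six2 (edgeR adjusted p = 0.011), where Six2 rose in high and fell in low cells. It was 3.44 for Rbp4 (0.0196) and 4.23 for Trf (0.000688). Genes at or near 0 outside the mutant high libraries gave 11.6 for Msln (0.00048), 10.03 for Krt5 (0.02), 10.03 for Kctd4 (0.00336), 9.87 for Clca1 (0.00558), 9.80 for Upk1b (0.000688) and 8.70 for Apob (0.0013). These 6 fitted sizes depend on the prior count and only their direction should be read.

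Of 48 groups of 4 low libraries examined, 3 held a library far from the other 3, where chance gives about 1 in 20. The gap of the farthest library as a share of the range was 1 for Foxa1 in control low cells, where a single library had fragments. It was 0.951 for Rbp4 in control low and 0.906 for Lrp2 in mutant low cells.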

How the results depend on the processing

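Tests on each transcript in place of loci called 2012 in all, 1447 higher and 565 lower, and a test against a 2-fold change called 1453, 954 and 499. Leaving out 1 library gave 1996 to 2823 loci in all, 1162 to 1779 higher and 601 to 1044 lower, against 3780, 2239 and 1541 with all libraries. The proximal tubule falls ranged from 67 (without mutant high 2) to 86, against 109, and the developmental rises from 34 (without control high 2) to 46, against 53. With DESeq2 the calls were 2199 higher and 1851 lower, with limma-voom 1937 and 1646, without the filter 2206 and 1300, with the 4 high libraries alone 2056 and 1802, with all libraries thinned to 4549011 fragments 2039 and 1472, and with the trend on span removed 1885 and 1757. The replicate numbers of the titles do not pair the high libraries. A replicate block on them called 2484 higher and 1970 lower, and of the named calls it lost those of Ihh, Llgl2, Lrrn4 and Mrps5.

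Of 121 named genes called in the test, 83 kept the call in each fit without 1 library and 38 lost it in at least 1. No called value changed direction under any setting. Values near 0 that did not pass did: Suz12 was -0.00104 with DESeq2, -0.00074 with RLE scaling, -0.118 with the span trend removed, -0.0567 without control high 2 and -0.117 without mutant high 1, within -0.117 to 0.205 over the fits without 1 library. Jarid2 was -0.0958 with the span trend removed. Epcam was 0.0017 without the filter and 0.11 without mutant high 2, and Krt8 0.0898 without mutant high 2, while without mutant high 1 they were -0.20 and -0.517. Jarid2 was also listed at 0 in all 4 control low libraries, as a failed estimate would be. The cause of these shifts was not tested. Depth limits the regulators: with 4549011 fragments in control high 2, 3 fragments over both controls equal 0.36 CPM, and folds against a group with no fragment are bounds at that floor.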
